A study of Mus musculus with 27 samples.

Results

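The circadian clock genes described here were 10 of the 24825 genes measured, namely Per1, Per2, Per3, Cry1, Cry2, Nr1d1, Nr1d2, Dbp, Arntl and Clock, taken by their gene symbol. All 10 were detected in each of the 27 samples. They were read across 9 groups of C2C12 cells, an established line of mouse myoblasts, the precursors of muscle fibers. The cells carried an empty retroviral vector (control), 3xFLAG-tagged full-length NFIA, or 3xFLAG-tagged Δpro#3, an NFIA that lacks the proline-rich end of its C-terminus. Polyadenylated RNA of each was sequenced in 3 replicates when confluent (day 0), after 7 days of an adipogenic protocol (day 7), and, on that day, after 10 µM forskolin for 4 h. Forskolin activates adenylyl cyclase and so raises cyclic AMP.

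The same adipogenic protocol was given to control, NFIA- and Δpro#3-expressing cells. For the first 48 h the medium held isobutylmethylxanthine, indomethacin, dexamethasone, insulin, T3 and rosiglitazone, and after that insulin, T3 and rosiglitazone. The introduced genes were driven by a viral promoter in whole cultures of a single line, and the labels do not say whether the 3 replicates were separate cultures, so the tests measure the spread between these samples only. The labels also give neither the clock hour of harvest nor the time since the last change of medium. A shift in the phase of a rhythm and a change in its mean level cannot be told apart from 1 sampling per day.

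In mammalian cells, CLOCK and BMAL1 (the product of Arntl) bind E-boxes as a pair and activate the Per, Cry, Nr1d and Dbp genes. PER and CRY proteins accumulate and repress CLOCK and BMAL1, which closes the main loop. REV-ERBα and REV-ERBβ, the products of Nr1d1 and Nr1d2, repress Arntl and compete with ROR receptors for the same DNA element. DBP is an output factor that binds D-boxes in clock-controlled genes. Most cells run this loop on their own, and serum, glucocorticoids and cyclic AMP can reset it, often through a rapid rise of Per1 and Per2. The repressors also act in fat and muscle, where they affect lipid metabolism and differentiation.

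FPKM, the fragments of a gene per kilobase of its length relative to all fragments of the sample, is the unit of all levels below. The samples held 9567769 to 27230965 fragments, and every member rested on at least 133 fragments in every sample. Nfia, the introduced gene, was at 225 to 594 FPKM in the samples of NFIA- and Δpro#3-expressing cells, and the order of these cell types changed with time. At day 0 it averaged 242 FPKM with NFIA and 406 with Δpro#3, and after forskolin 539 and 294 FPKM, with no overlap of samples at either time. At day 7 the samples overlapped, with means of 482 and 413 FPKM. The part of these levels in the differences between Δpro#3- and NFIA-expressing cells was not tested. It was below 1 FPKM in 8 of the 9 control samples and at 7.35 FPKM in replicate 2 of control cells at day 0. The 14 muscle markers were all above 1 FPKM in control cells at day 0. Of the 12 adipocyte markers, 3 averaged 1 FPKM or more there (Lpl at 34.6, Cebpa at 6.7 and Pparg at 2.26 FPKM). Another 3 (Cidec, Lep and Retn) were at 0. The 5 macrophage markers summed to 26.7 FPKM or less in every sample. Replicate 1 stood apart from the other replicates in 3 groups, Δpro#3-expressing cells at day 7 and NFIA- and Δpro#3-expressing cells after forskolin. Its chi-squared per gene was 11.9 to 14.97 against the others of its group, which differed from each other by 3.40 to 6.04. Calls of members that change without these samples are given beside the results, and leaving all 3 out together was chosen after the data were seen.

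The members lie on 8 chromosomes, and their positions are given in the mouse build NCBIM37 (mm9). The activators Clock (chromosome 5 from 76639992 to 76733817) and Arntl (chromosome 7 from 120350979 to 120457636) overlapped no other annotated gene. The same held for the repressors Per1 (chromosome 11 from 68908719 to 68923462), Per2 (chromosome 1 from 93312561 to 93355907), Per3 (chromosome 4 from 150377761 to 150418774) and Cry1 (chromosome 10 from 84594447 to 84647799), and for Nr1d2 (chromosome 14 from 19036568 to 19071641). Cry2 (chromosome 2 from 92243803 to 92274200), Nr1d1 (chromosome 11 from 98629246 to 98636647) and Dbp (chromosome 7 from 52960458 to 52965525) each overlapped 1 gene on the opposite strand, D930015M05Rik, Thra and Sphk2, respectively. The fragments had been counted on the matched strand.

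The 250 bases before the annotated starts of the members were searched on both strands for the elements of the clock loop, cyclic AMP and NFI. RefSeq (GRCm38.p6) gave at least 1 start for 9 of the 10 members, and Per2 had no entry. The E-box CACGTG was found in 2 of the 9 genes (Per1 and Cry1), against 6.86% of all 27025 genes with such a window. The D-box TTATGNAA was found in 2 (Per1 and Per3), against 3.63%, and the ROR element core AGGTCA in 3 (Per1, Nr1d2 and Clock), against 15.8%. The full cyclic AMP response element TGACGTCA was in the windows of none of the 9 genes (1.77% of all genes). The NFI core TTGGC was in those of 6 of the 9 genes (45.3% of all genes), and the longer NFI palindrome in those of none (0.0444%). These letters were read in short windows only, and a match is not evidence of binding.

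The windows of Per1, Cry1, Per3 and Nr1d2 are shown as examples that hold the clock elements and belong to genes called changed from day 0 to day 7. A window of Clock with a ROR element core is not shown. They read 5′ to 3′ on the strand of the gene and end at the base before its start, in GRCm38.p6. The capitals mark E-boxes, D-boxes and ROR element cores in either orientation, none of which overlapped another.
Per1, chr11:69098699-69098948, + strand, first of its 2 starts: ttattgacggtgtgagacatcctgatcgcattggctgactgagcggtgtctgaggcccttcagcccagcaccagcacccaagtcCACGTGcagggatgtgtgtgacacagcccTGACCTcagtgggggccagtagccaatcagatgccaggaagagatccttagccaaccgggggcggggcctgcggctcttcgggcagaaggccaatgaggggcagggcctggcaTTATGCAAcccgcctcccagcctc
Cry1, chr10:85185055-85185304, - strand: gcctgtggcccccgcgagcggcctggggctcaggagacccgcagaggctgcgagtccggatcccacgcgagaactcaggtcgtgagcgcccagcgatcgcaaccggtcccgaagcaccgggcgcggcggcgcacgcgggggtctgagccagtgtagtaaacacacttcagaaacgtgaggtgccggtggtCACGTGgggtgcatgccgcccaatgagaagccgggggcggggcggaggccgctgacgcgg
Per3, chr4:151044666-151044915, - strand: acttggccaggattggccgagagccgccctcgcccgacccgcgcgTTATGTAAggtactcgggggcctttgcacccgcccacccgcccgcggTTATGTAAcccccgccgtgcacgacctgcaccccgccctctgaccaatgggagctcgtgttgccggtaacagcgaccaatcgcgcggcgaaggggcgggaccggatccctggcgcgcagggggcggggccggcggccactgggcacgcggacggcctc
Nr1d2, chr14:18239107-18239356, - strand: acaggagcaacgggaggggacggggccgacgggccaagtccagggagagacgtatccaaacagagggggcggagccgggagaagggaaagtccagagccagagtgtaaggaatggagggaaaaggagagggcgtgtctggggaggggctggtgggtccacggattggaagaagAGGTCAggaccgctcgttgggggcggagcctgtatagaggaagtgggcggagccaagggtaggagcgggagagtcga
In Per1, the capitals are an E-box that begins 166 bases before the start, a ROR element core at 137 bases and a D-box at 24 bases. The E-box of Cry1 begins 60 bases before its start. Per3 holds D-boxes at 205 and 158 bases, and Nr1d2 a ROR element core at 77 bases.

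The levels of the members spanned 2.34 to 67.4 FPKM over all samples. Per2 and Per1 varied most between groups, with a ratio of the highest to the lowest group mean of 7.58 and 7.03, respectively, and for both the lowest group was control cells at day 0 and the highest NFIA-expressing cells after forskolin. Clock varied least, with a ratio of 1.85. In the order of the 9 group means, neighbouring groups did not overlap in 7 of 8 steps for Per2, in 6 for Per1 and Arntl, and in 2 for Clock. Per3 ran the other way from Per1 and Per2, with its lowest mean (3.05 FPKM) in NFIA-expressing cells after forskolin and its highest (13.4 FPKM) in Δpro#3-expressing cells at day 0. For Nr1d1 and Nr1d2 the highest mean was in control cells at day 0 (17.3 and 19.1 FPKM), and for Cry2 in NFIA-expressing cells at day 7 (15.3 FPKM).

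**Figure D1:**
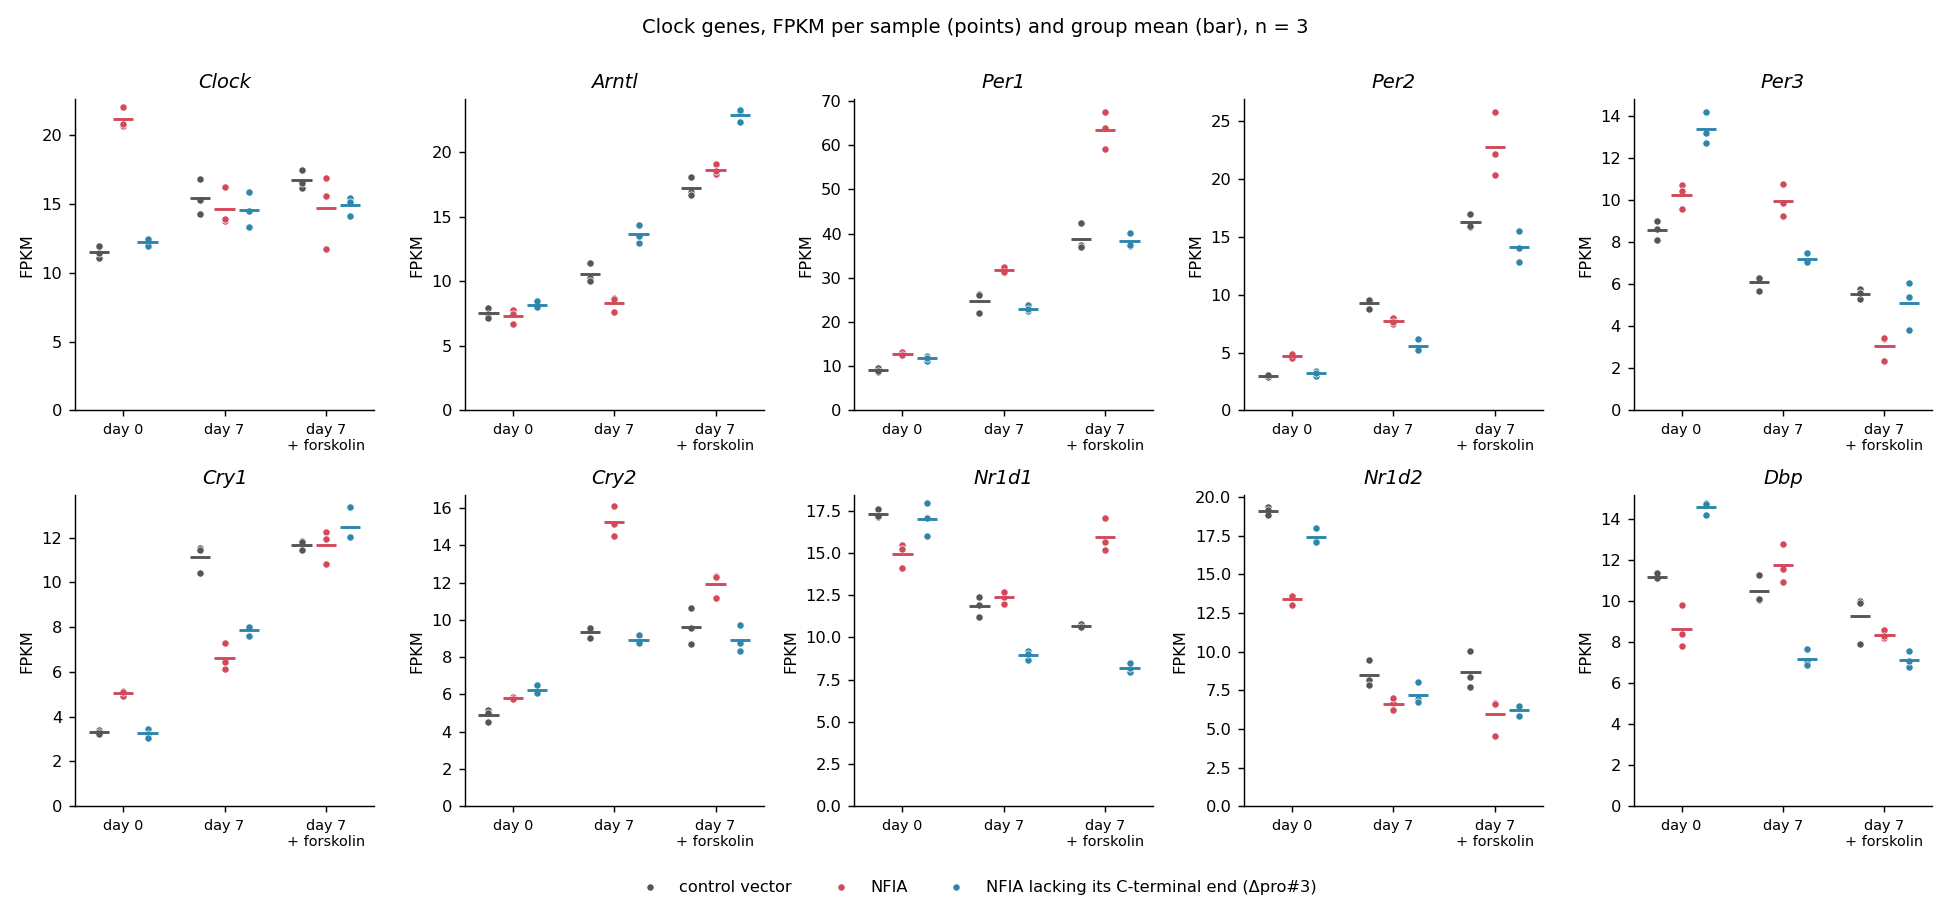
FPKM (vertical axes, from 0) of the 10 clock genes in each sample (points) with the group mean (bar, n = 3), for control, NFIA- and Δpro#3-expressing cells on day 0 and on day 7 without and with forskolin. Per1 and Per2 step up from day 0 to day 7 and again after forskolin in each cell type, and the 3 NFIA samples of Clock at day 0 stand above all others.

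Groups were compared with limma on log2(FPKM + 1), with p-values adjusted by the Benjamini-Hochberg method over all genes tested. A call required an adjusted p under 0.05 and a difference of more than 1.5-fold in FPKM + 1, and "rose" or "fell" is used for called genes only. Differences below are on this log2 scale with their SE, and the added 1 makes them smaller than the ratio of FPKM for weakly expressed genes. A change in the cells that hold a transcript and a change in transcript per cell cannot be told apart in these bulk samples.

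The change from day 0 to day 7 sets confluent cells against cells after 7 days of the adipogenic protocol. Differentiation and the change of medium run together in it and cannot be told apart. The repressors Per1 and Per2 rose and Nr1d2 fell in control, NFIA- and Δpro#3-expressing cells alike. In control cells, 5 of the 10 members were called (4 higher, 1 lower), where 39.6% of the 12408 genes tested were. In NFIA-expressing cells, 4 were called (3 higher, 1 lower), against 38.9% of all genes. With Δpro#3, 8 were called (4 higher, 4 lower), against 37.1%. The median log2 change over the 10 members was 0.42, 0.25 and 0.34 in this order of cell types, against -0.06, -0.11 and -0.11 over all genes tested. Clock was called in none of the 3 cell types.

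The PER genes encode proteins that repress CLOCK and BMAL1 together with CRY. In control cells, Per1 had 8.70, 9.58 and 8.82 FPKM at day 0 and 22.1, 26.3 and 26.1 FPKM at day 7 (log2 difference 1.36 ± 0.06, adjusted p = 1.81e-12, limma). Per2 had 3.03, 2.91 and 3.07 FPKM at day 0 and 9.54, 9.58 and 8.81 FPKM at day 7 (1.36 ± 0.06, adjusted p = 2.42e-12, limma). No day 7 sample of either gene was near a day 0 sample. The rise of Per1 was 1.25 ± 0.06 in NFIA- and 0.92 ± 0.06 in Δpro#3-expressing cells, and that of Per2 was 0.61 ± 0.06 and 0.64 ± 0.06, respectively. The last of these did not reach 1.5-fold without replicate 1 of Δpro#3-expressing cells at day 7 (0.58), a sample that stood apart, and 7 members were then called in place of 8. Per3, a PER protein less needed for the rhythm, did not follow them. It was at 6.08 ± 0.359 FPKM in control cells at day 7 against 8.58 ± 0.452 at day 0 (SD, n = 3 each), less than 1.5-fold lower, and fell in Δpro#3-expressing cells from 14.2, 12.7 and 13.2 to 7.10, 7.04 and 7.49 FPKM (fell by 0.81 ± 0.06, adjusted p = 3.36e-09, limma).

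Cry1 and Cry2 encode the partners of PER. Cry1 had the largest rise of the 10 in control cells, from 3.40, 3.34 and 3.23 FPKM to 11.5, 10.4 and 11.5 FPKM (1.49 ± 0.06, adjusted p = 6.35e-13, limma). In NFIA-expressing cells it went from 4.90, 5.15 and 5.09 to 7.31, 6.15 and 6.44 FPKM, a difference of 0.33 ± 0.06 that was below 1.5-fold. The day 0 samples of NFIA-expressing cells were thus already above those of control cells, and their day 7 samples below. With Δpro#3, Cry1 rose by 1.06 ± 0.06. Cry2 rose by 0.81 ± 0.05 in control and by 1.25 ± 0.05 in NFIA-expressing cells, where it reached 14.5, 15.1 and 16.1 FPKM. Its difference with Δpro#3 was 0.45 ± 0.05, and it was not called.

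Of the REV-ERB genes, Nr1d2 fell in control cells from 19.4, 19.1 and 18.8 FPKM to 8.18, 9.44 and 7.85 FPKM (fell by 1.09 ± 0.06, adjusted p = 9.79e-11, limma). It fell by 0.92 ± 0.06 in NFIA- and by 1.17 ± 0.06 in Δpro#3-expressing cells. Nr1d1 was at 17.1, 17.6 and 17.2 FPKM at day 0 and 11.9, 12.4 and 11.2 FPKM at day 7 in control cells, a difference of -0.51 ± 0.05 that was below 1.5-fold. It was called in Δpro#3-expressing cells, where it fell by 0.85 ± 0.05 to 9.18, 8.69 and 8.99 FPKM. Dbp moved little in control cells (11.2 ± 0.130 FPKM at day 0 and 10.5 ± 0.682 at day 7, SD, n = 3 each, adjusted p = 0.253, limma), and the samples overlapped. Dbp fell in Δpro#3-expressing cells from 14.8, 14.2 and 14.8 FPKM to 7.01, 7.66 and 6.87 FPKM (fell by 0.93 ± 0.07, adjusted p = 2.39e-09, limma).

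Arntl and Clock encode the activators. Arntl was 0.44 ± 0.06 higher at day 7 in control cells and 0.17 ± 0.06 higher in NFIA-expressing cells, both below 1.5-fold. It rose in Δpro#3-expressing cells from 8.05, 8.03 and 8.48 to 13.0, 13.5 and 14.4 FPKM (0.67 ± 0.06, adjusted p = 4.95e-08, limma). Clock differed by 0.40 ± 0.07 in control, -0.51 ± 0.07 in NFIA- and 0.23 ± 0.07 in Δpro#3-expressing cells. Its samples at day 7 lay between 13.3 and 16.8 FPKM in all 3 cell types.

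**Figure D2:**
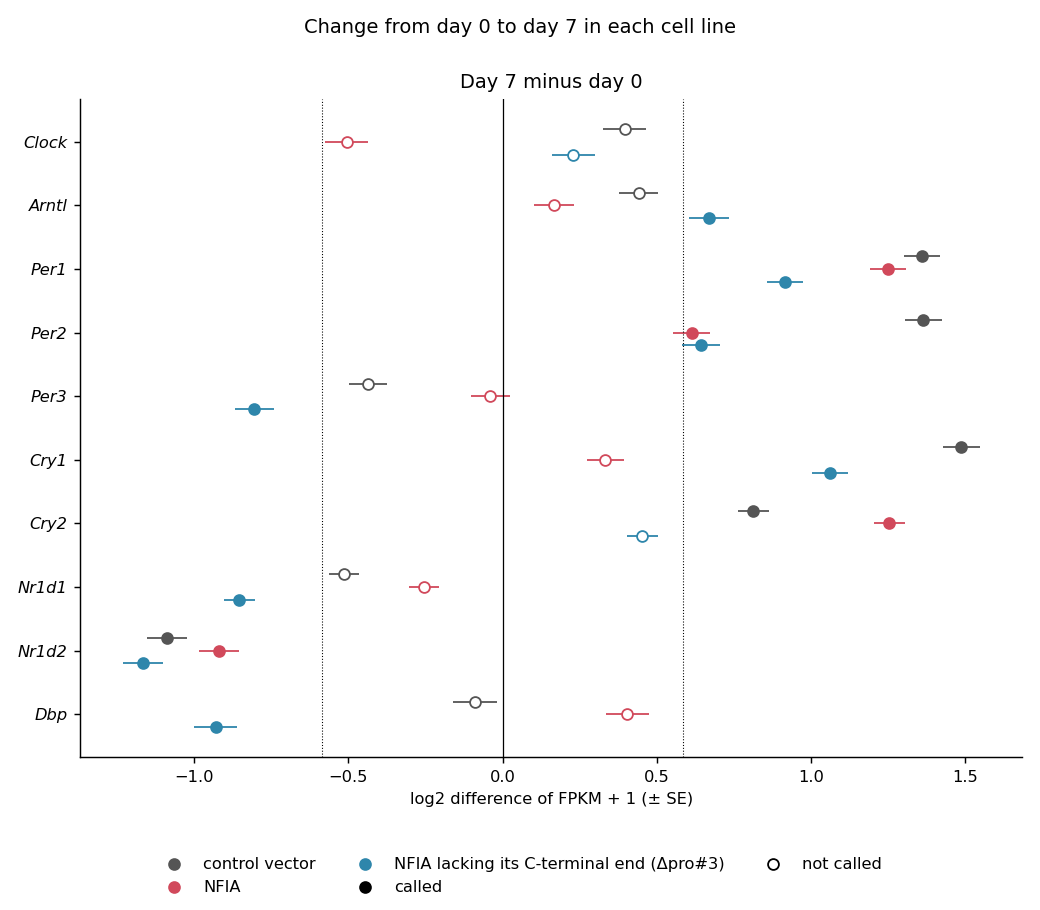
Log2 difference in FPKM + 1 between day 7 and day 0 (horizontal axis, points with SE bars) for each clock gene in control, NFIA- and Δpro#3-expressing cells. Filled points were called changed, open points were not, and the dotted lines mark 1.5-fold. Per1 and Per2 lie right of the line and Nr1d2 left of it in all 3 cell types, while Cry1 lies between 0.33 in NFIA-expressing and 1.49 in control cells.

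Whether the change from day 0 to day 7 differed between the cell types was tested as such. For NFIA-expressing against control cells, 3 of the 10 members were called (none higher, 3 lower), where 37.5% of all genes were. These were Cry1 (-1.16 ± 0.08, adjusted p = 2.64e-09), Clock (-0.90 ± 0.10, adjusted p = 4.30e-07) and Per2 (-0.75 ± 0.09, adjusted p = 6.84e-07, all limma). For Δpro#3-expressing against control cells, 2 were called (none higher, 2 lower), against 14.8% of all genes. These were Dbp (-0.84 ± 0.10, adjusted p = 3.82e-06) and Per2 (-0.72 ± 0.09, adjusted p = 3.99e-06, both limma). Both tests use the same control samples. In NFIA-expressing cells, the differences for Per1 (-0.11 ± 0.08, adjusted p = 0.236) and Nr1d2 (0.17 ± 0.09, adjusted p = 0.109, both limma) did not pass the threshold. The other members there had an adjusted p under 0.05 (limma) but were below 1.5-fold. Dbp (0.49 ± 0.10), Cry2 (0.44 ± 0.07), Per3 (0.40 ± 0.09) and Nr1d1 (0.26 ± 0.07) were higher, and Arntl (-0.27 ± 0.09) lower. With Δpro#3 the same held for Per1 (-0.45 ± 0.08), Cry1 (-0.43 ± 0.08), Per3 (-0.37 ± 0.09), Cry2 (-0.36 ± 0.07) and Nr1d1 (-0.34 ± 0.07), all lower.

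The cell types differed in more than the clock at day 7. The 14 muscle markers summed to 13435.9 to 15747.6 FPKM in control, 2505.4 to 3412.5 in NFIA- and 16192.2 to 16932.7 in Δpro#3-expressing cells, and all 14 were above 1 FPKM in each. The 12 adipocyte markers summed to 361.1 to 398.5, 13605.0 to 15123.7 and 633.9 to 2055.9 FPKM, in the same order. Lep was at 0 in control and Δpro#3-expressing cells, and Ucp1 in all 3. Of 10 glucocorticoid response genes, which dexamethasone (in the medium for the first 48 h) can act on, 8 rose from day 0 to day 7 in control, 7 in NFIA- and 8 in Δpro#3-expressing cells, and 2 fell in NFIA-expressing cells, where 39.6%, 38.9% and 37.1% of all genes tested were called. In the direct test of the difference in change from control cells, 3 of the 10 were called higher and 5 lower with NFIA, against 37.5% of all genes. With Δpro#3, 2 were called lower, against 14.8%. The part of these markers and response genes in the changes of the clock genes was not tested.

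Forskolin asks how the clock genes answer to cyclic AMP in each cell type. Per1, Per2 and Arntl rose in all 3 cell types, Cry1 rose in NFIA- and Δpro#3-expressing cells, and Per3 fell in NFIA-expressing cells. Clock, Cry2, Nr1d1, Nr1d2 and Dbp were called in none. In control cells, 3 of the 10 members were called (3 higher), where 4.14% of the 12245 genes tested were. In NFIA-expressing cells, 5 were called (4 higher, 1 lower), against 13.5%, and in Δpro#3-expressing cells 4 (4 higher), against 7.43%. The median log2 difference over the members was 0.05, 0.17 and 0.02 in control, NFIA- and Δpro#3-expressing cells, against -0.05, -0.15 and -0.06 over all genes. Of 14 early cyclic AMP response genes tested, 6 rose in control, 12 in NFIA- and 9 in Δpro#3-expressing cells, and Egr1 fell in control and Δpro#3-expressing cells. Of the 10 glucocorticoid response genes, 6, 4 and 7 rose with forskolin in this order of cell types and none fell (median log2 difference 0.75, 0.51 and 0.89), Mt1 and Mt2 among them in each. Of the adipocyte markers, 10 of 12 were tested here, and 6 of them fell with forskolin in Δpro#3-expressing cells (Plin1, Cidec and Adipoq among them), 2 in NFIA-expressing cells (Cebpa and Plin1) and none in control cells. Before forskolin, replicate 1 of Δpro#3-expressing cells had a summed level of 2055.9 FPKM of the 12, against 633.9 and 745.5 FPKM in the others. Without it, 2 adipocyte markers fell and 1 rose with Δpro#3, and with all 3 samples that stood apart left out 6 fell. After forskolin the 12 summed to 555.4 to 919.7 FPKM with Δpro#3, 13067.8 to 13798.1 with NFIA and 315.9 to 328.3 in control cells, and Lep was at 0 in Δpro#3-expressing cells and Lep and Ucp1 in control cells. Of the 14 muscle markers, 2 fell with Δpro#3 (Myh8 and Ttn) and none was called in the others, with sums of 14374.9 to 15633.0, 2183.9 to 2620.0 and 13145.0 to 15600.9 FPKM in the same order. The part of these lists in the forskolin responses, and in the differences between cell types after forskolin, was not tested.

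Per1 and Per2 are known early targets of cyclic AMP signalling. In control cells, Per1 went from 22.1, 26.3 and 26.1 FPKM to 37.3, 42.4 and 37.0 FPKM with forskolin (0.63 ± 0.07, adjusted p = 5.95e-06, limma). In NFIA-expressing cells, it went from 31.3, 32.4 and 31.4 to 59.1, 67.4 and 64.0 FPKM (0.98 ± 0.07, adjusted p = 9.01e-09, limma). The samples with and without forskolin stood apart in both. The rise in control cells was just past 1.5-fold and was not called without replicate 1 of control cells at day 7 (0.55) or without replicate 2 of control cells after forskolin (0.57). With Δpro#3, Per1 rose by 0.71 ± 0.07, to 37.2, 37.4 and 40.2 FPKM.

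Per2 had the largest rise among the members. It went from 9.54, 9.58 and 8.81 to 15.9, 17.0 and 16.0 FPKM in control cells (0.74 ± 0.08, adjusted p = 5.36e-06, limma). In NFIA-expressing cells, it went from 7.99, 7.44 and 7.66 to 20.4, 22.1 and 25.8 FPKM (1.45 ± 0.08, adjusted p = 6.59e-10, limma). The NFIA samples thus began below and ended above the control samples. In Δpro#3-expressing cells Per2 went from 6.15, 5.43 and 5.19 to 15.5, 12.8 and 14.0 FPKM (1.20 ± 0.08, adjusted p = 1.16e-08, limma).

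Per3 did not rise in any cell type. Without forskolin, NFIA-expressing cells at day 7 had 9.87, 9.21 and 10.8 FPKM, and with it 2.34, 3.37 and 3.45 FPKM (fell by 1.44 ± 0.12, adjusted p = 5.75e-08, limma). All treated samples were thus below all untreated ones, and replicate 1 was the lowest sample of Per3 in the series. In control cells it was at 5.67, 6.30 and 6.28 FPKM without and 5.79, 5.30 and 5.57 FPKM with forskolin, and the samples overlapped. In Δpro#3-expressing cells the difference was -0.45 ± 0.12 (adjusted p = 0.00814, limma), below 1.5-fold, with 3.82, 5.40 and 6.03 FPKM after forskolin.

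Cry1 answered by cell type. In control cells it was at 11.5, 10.4 and 11.5 FPKM without and 11.8, 11.8 and 11.4 FPKM with forskolin (0.07 ± 0.07, adjusted p = 0.551, limma). In NFIA-expressing cells it rose from 7.31, 6.15 and 6.44 to 12.3, 10.8 and 11.9 FPKM (0.73 ± 0.07, adjusted p = 1.58e-07, limma). After forskolin the samples of both cell types overlapped. In Δpro#3-expressing cells the rise was 0.60 ± 0.07, to 12.0, 12.0 and 13.4 FPKM. It was not called without replicate 1 of Δpro#3-expressing cells at day 7 (0.58) or without replicate 3 of those cells after forskolin (0.55). Cry2 was 0.33 ± 0.07 lower with forskolin in NFIA-expressing cells, below 1.5-fold, and differed by 0.04 ± 0.07 in control cells.

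Arntl, the gene of the activator BMAL1, rose too. It went from 10.2, 10.0 and 11.4 to 16.9, 18.1 and 16.7 FPKM in control cells (0.66 ± 0.06, adjusted p = 6.52e-07, limma). In NFIA-expressing cells it went from 7.66, 8.73 and 8.61 to 18.3, 19.1 and 18.5 FPKM (1.07 ± 0.06, adjusted p = 5.49e-10, limma). Treated and untreated samples stood apart in each cell type. With Δpro#3, where Arntl was highest both before and after, the rise was 0.71 ± 0.06, from 13.0, 13.5 and 14.4 to 23.1, 23.3 and 22.3 FPKM. Clock, its partner, differed by 0.11 ± 0.10 in control and 0.03 ± 0.10 in Δpro#3-expressing cells.

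Nr1d1, Nr1d2 and Dbp moved by less than 1.5-fold. Nr1d1 was 0.34 ± 0.05 higher with forskolin in NFIA-expressing cells (12.0, 12.4 and 12.7 FPKM without and 15.6, 17.1 and 15.1 FPKM with it, adjusted p = 4.54e-05, limma). In control cells its difference was -0.14 ± 0.05 (adjusted p = 0.0798, limma). Dbp was 0.44 ± 0.08 lower in NFIA-expressing cells (adjusted p = 0.000187, limma), and its samples in Δpro#3-expressing cells overlapped.

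**Figure D3:**
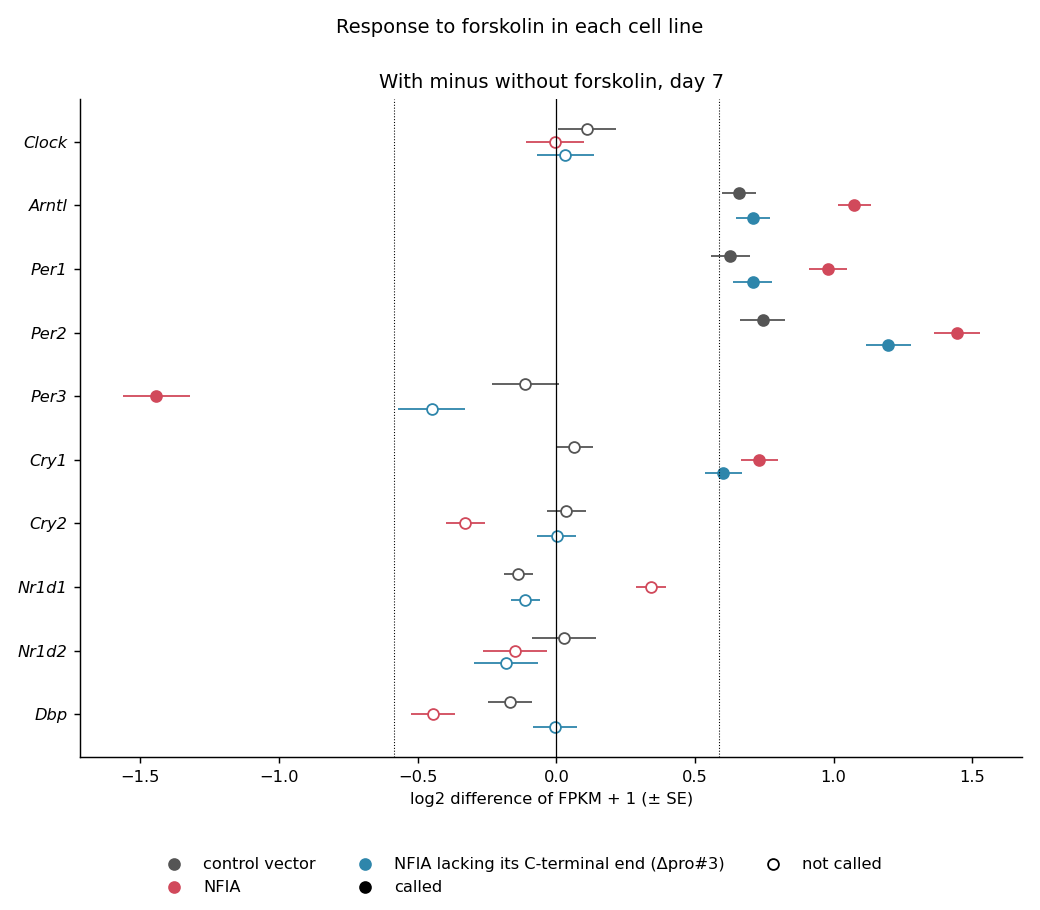
Log2 difference in FPKM + 1 between cells with and without forskolin at day 7 (horizontal axis, points with SE bars) for each clock gene in control, NFIA- and Δpro#3-expressing cells. Filled points were called changed, open points were not, and the dotted lines mark 1.5-fold. Arntl, Per1 and Per2 lie past the line in all 3 cell types, and Per3 lies at -1.44 in NFIA-expressing cells.

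The difference in forskolin response between cell types was tested directly. For NFIA-expressing against control cells, 3 of the 10 members were called (2 higher, 1 lower), where 10.0% of all genes were. Of the 14 cyclic AMP response genes, 10 were called higher and 1 lower in the same test (median 1.12, against -0.10 over all genes). The response of Per3 was lower by 1.33 ± 0.17 on the log2 scale (adjusted p = 2.32e-05, limma), and those of Per2 and Cry1 were higher by 0.70 ± 0.12 (adjusted p = 0.000257) and 0.67 ± 0.09 (adjusted p = 6.29e-05, both limma). For Nr1d1 (0.48 ± 0.07), Arntl (0.42 ± 0.08) and Per1 (0.35 ± 0.10) the adjusted p was 0.000158, 0.00147 and 0.0128 (limma), with a difference below 1.5-fold. The same held for Cry2, whose response was lower (-0.36 ± 0.10, adjusted p = 0.0109, limma). For Δpro#3-expressing against control cells, no member was called, against 2.33% of all genes, and 3 of the 14 cyclic AMP response genes were called higher. There, the adjusted p was under 0.05 for Cry1 (0.54 ± 0.09, adjusted p = 0.00282, limma) and Per2 (0.45 ± 0.12, adjusted p = 0.0314, limma). The responses of NFIA- and Δpro#3-expressing cells were not tested against each other.

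FPKM are not scaled between samples, and the median log2 difference over all genes was -0.15 for the forskolin response of NFIA-expressing cells. With the samples scaled by median ratios this median was -0.04, and the called members moved up with it, to 1.58 for Per2, 1.21 for Arntl, 1.12 for Per1, 0.86 for Cry1 and -1.34 for Per3. The share of higher genes among all called went from 29.3% to 49.1%. All 5 kept their call and direction. For the change from day 0 to day 7, the scaling moved the median from -0.11 to 0.01 in NFIA-expressing and from -0.11 to -0.0013 in Δpro#3-expressing cells, and the share of higher genes from 43.0% to 53.7% and from 41.5% to 52.7%. There too, each called member kept its call.

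The effect of the constructs on the clock genes was read at each time. At day 0, Clock rose in NFIA-expressing cells, with 20.6, 20.8 and 22.0 FPKM against 11.1, 11.4 and 11.9 FPKM in control cells (0.83 ± 0.04, adjusted p = 7.92e-09, limma). These were the 3 highest samples of Clock in the series. It was the only member called, 1 of 10 (1 higher), where 24.5% of the 12105 genes tested were. The median log2 difference was 0.22 over the members and 0.01 over all genes. A further 8 members differed at an adjusted p under 0.05 by less than 1.5-fold. Per1 (0.46 ± 0.05), Per2 (0.51 ± 0.05) and Cry1 (0.49 ± 0.05) were higher and Nr1d2 (-0.48 ± 0.03) and Dbp (-0.34 ± 0.06) lower in NFIA-expressing cells. With a pseudocount of 0.1, Per2 (0.62) and Cry1 (0.59) were called as well, and so they were with limma-voom (0.63 and 0.60), which made 3 members in place of 1.

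With Δpro#3 at day 0, no member was called against control cells, where 14.0% of all genes were. Per3 was closest to the threshold, with 14.2, 12.7 and 13.2 FPKM against 8.11, 8.62 and 9.02 FPKM in control cells (0.58 ± 0.05, adjusted p = 4.64e-06, limma), and it was called without replicate 2 of control cells (0.59), the sample with more Nfia. It was also called without replicate 3 of control cells or replicate 2 (each 0.62) or 3 (0.59) of Δpro#3-expressing cells. Clock was at 11.9, 12.4 and 12.4 FPKM, within 0.09 ± 0.04 of control cells (adjusted p = 0.0729, limma). Against NFIA-expressing cells, 2 members were called (1 higher, 1 lower), and 15.6% of all genes. Clock was lower by 0.74 ± 0.04 (adjusted p = 3.95e-08, limma) and Dbp higher by 0.69 ± 0.06 (adjusted p = 3.10e-06, limma). Dbp had 14.8, 14.2 and 14.8 FPKM with Δpro#3 and 9.79, 8.41 and 7.79 FPKM with NFIA, on both sides of the 11.1, 11.1 and 11.3 FPKM of control cells. The cell types also differed in their markers at day 0. Of 13 muscle markers tested against control cells, 13 were lower with NFIA and 11 with Δpro#3. The 14 of the list summed to 1733.6 to 1838.7 FPKM in control, 145.4 to 153.7 in NFIA- and 438.0 to 446.2 in Δpro#3-expressing cells. Of the 12 adipocyte markers, 4 were tested and all 4 were higher with either construct. The 12 summed to 40.5 to 49.1, 432.1 to 459.5 and 318.3 to 335.3 FPKM in this order of cell types, and Lep and Ucp1 were at 0 with both constructs and Retn with NFIA. The part of these markers in the day 0 differences of the clock genes was not tested.

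At day 7, 3 members were called in NFIA-expressing against control cells (2 higher, 1 lower), where 35.5% of the 12324 genes tested were. The median log2 difference was -0.01 over the members and -0.08 over all genes. Cry2 had 14.5, 15.1 and 16.1 FPKM against 9.45, 9.06 and 9.55 FPKM (0.65 ± 0.06, adjusted p = 2.57e-06, limma), and Per3 had 9.87, 9.21 and 10.8 against 5.67, 6.30 and 6.28 FPKM (0.63 ± 0.07, adjusted p = 1.67e-05, limma). Cry1 was lower, with 7.31, 6.15 and 6.44 against 11.5, 10.4 and 11.5 FPKM (-0.67 ± 0.07, adjusted p = 1.20e-05, limma). The Cry genes thus stood on opposite sides of control cells, with no overlap of samples in either. Per3 was not called without replicate 3 of NFIA-expressing cells (0.57), and Cry1 not after scaling by the median ratio (-0.58). Clock, which was higher in NFIA-expressing cells at day 0, differed by -0.07 ± 0.09 (adjusted p = 0.476, limma).

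With Δpro#3 at day 7, 1 member was called against control cells (1 lower), where 12.7% of all genes were. This was Per2, with 6.15, 5.43 and 5.19 FPKM against 9.54, 9.58 and 8.81 FPKM (-0.65 ± 0.07, adjusted p = 5.73e-05, limma). Against NFIA-expressing cells, 3 members were called (1 higher, 2 lower), and 26.1% of all genes. Arntl was higher by 0.65 ± 0.07 (adjusted p = 2.35e-05, limma), with 13.0, 13.5 and 14.4 against 7.66, 8.73 and 8.61 FPKM. Cry2 was lower by 0.71 ± 0.06 (adjusted p = 1.91e-06, limma) and Dbp by 0.64 ± 0.07 (adjusted p = 3.08e-05, limma). Dbp was just under 1.5-fold without replicate 1 of NFIA-expressing cells (-0.58).

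After forskolin, 2 members were called in NFIA-expressing against control cells (1 higher, 1 lower), where 34.5% of the 12121 genes tested were. Per1 had 59.1, 67.4 and 64.0 FPKM against 37.3, 42.4 and 37.0 FPKM (0.69 ± 0.07, adjusted p = 5.03e-06, limma). Per3 had 2.34, 3.37 and 3.45 against 5.79, 5.30 and 5.57 FPKM (-0.70 ± 0.14, adjusted p = 0.00109, limma). Per3 was thus above control cells before and below them after forskolin. It was not called without replicate 1 of NFIA-expressing cells (-0.57) or after scaling by the median ratio (-0.55). That scaling moved the median over all genes from -0.17 to -0.01 and the share of higher genes among those called from 39.1% to 54.5%. With it, Per1 was 0.88 higher, and Per2 (0.64) and Nr1d1 (0.72) were called too.

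No member was called with Δpro#3 against control cells after forskolin, where 12.8% of all genes were. Arntl was 0.39 ± 0.05 higher and Nr1d1 0.34 ± 0.06 lower, both below 1.5-fold. Against NFIA-expressing cells, 3 members were called (3 lower), and 27.2% of all genes. Nr1d1 had 7.97, 8.18 and 8.47 FPKM with Δpro#3 and 15.6, 17.1 and 15.1 FPKM with NFIA (-0.88 ± 0.06, adjusted p = 2.71e-07, limma), with control cells between them at 10.6, 10.8 and 10.6 FPKM. Per1 was lower by 0.71 ± 0.07 (adjusted p = 5.45e-06, limma) and Per2 by 0.65 ± 0.09 (adjusted p = 7.72e-05, limma). Per2 was not called without replicate 3 of NFIA-expressing cells (-0.56). Per3 had 3.82, 5.40 and 6.03 FPKM with Δpro#3 and 2.34, 3.37 and 3.45 FPKM with NFIA, with no overlap, a difference of 0.58 ± 0.14 just below 1.5-fold (adjusted p = 0.00439, limma). It was called without replicate 2 (0.64) or 3 (0.65) of NFIA-expressing cells or replicate 1 of Δpro#3-expressing cells (0.74), and with all 3 samples that stood apart left out (0.61). Scaling by the median ratio moved the median over all genes from 0.12 to 0.01 and the share of higher genes from 58.2% to 46.4%, and these 3 differences to -1.01, -0.85 and -0.78.

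**Figure D4:**
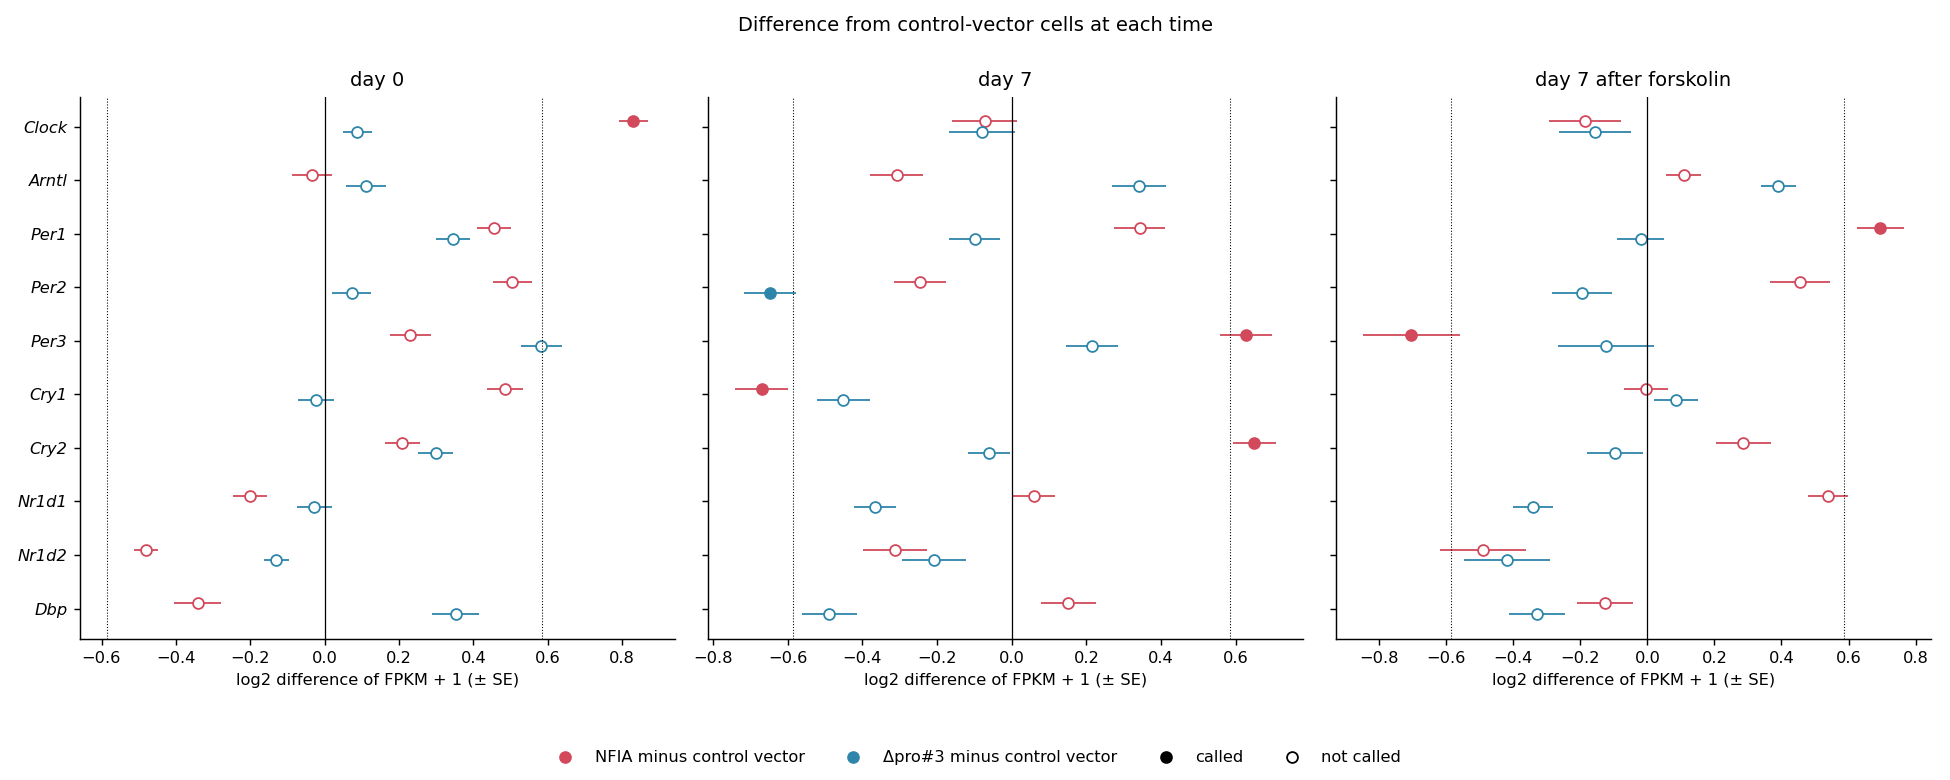
Log2 difference in FPKM + 1 from control cells (horizontal axes, points with SE bars) for NFIA- and Δpro#3-expressing cells before differentiation (day 0), on day 7, and on day 7 with forskolin. Filled points were called changed, open points were not, and the dotted lines mark 1.5-fold. Clock with NFIA is called at day 0 (0.83) and lies near 0 at the other times, while Per3 with NFIA moves from 0.63 at day 7 to -0.70 after forskolin.

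Over the 9 group means of log2(FPKM + 1), Per1 followed Per2 (r = 0.96) and Per2 followed Cry1 (r = 0.918), while Per1 and Nr1d2 (r = -0.917) and Per2 and Per3 (r = -0.883) ran in opposite directions. The partners Arntl and Clock did not follow each other (r = 0.0824). The groups share cell types and times, so these values describe the 9 groups and carry no test. Within groups, the deviations of Nr1d2 and Clock from their group means went together over the 27 samples (r = 0.819). In NFIA-expressing cells after forskolin, replicate 1 was the lowest for both, with 4.57 against 6.66 and 6.60 FPKM of Nr1d2 and 11.7 against 15.5 and 16.9 FPKM of Clock. Without the 3 samples of that group the correlation was 0.662, and that of Per3 and Nr1d2 went from 0.525 to 0.232.

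Among the 6435 genes with a mean of at least 1 FPKM and a range over 1 on the log2 scale, those whose group means were most like the pattern of Per1 were Fam71f2 (r = 0.982), Hilpda (r = 0.980) and Ppme1 (r = 0.973). Hilpda, which encodes a lipid droplet protein, had 7.95 FPKM in control cells at day 0 and 95.9 FPKM in NFIA-expressing cells after forskolin. For Arntl they were Gm16062 (r = 0.972), Arrdc3 (r = 0.947) and Zpr1 (r = 0.936). For Nr1d1 they were Xist, Stk39 and Ankrd12 (r = 0.941 to 0.935), and for Dbp, Nid2, Mir199a-1 and Mgat4b (r = 0.875 to 0.855). All were read over 9 group means.

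A list of other clock genes was read beside the members. It named 24 genes, of which 23 were in the files, and 18 to 20 passed the filter on low values. From day 0 to day 7, 4 of 19 rose and 3 fell in control cells, 7 rose and 3 fell in NFIA-expressing cells, and 5 rose and 3 fell in Δpro#3-expressing cells, where 39.6%, 38.9% and 37.1% of all genes tested were called. Usp2, a deubiquitinase under clock control, rose in control cells by 3.74 ± 0.07, from 1.33 to 30.3 FPKM in the group means, by 1.95 ± 0.07 in NFIA- and by 2.90 ± 0.07 in Δpro#3-expressing cells. Its change differed from that of control cells by -1.79 ± 0.10 with NFIA (adjusted p = 1.96e-10, limma) and by -0.85 ± 0.10 with Δpro#3 (adjusted p = 6.43e-06, limma). Ciart, a repressor of CLOCK and BMAL1, rose by 1.37 ± 0.17 in control, 1.38 ± 0.17 in NFIA- and 1.01 ± 0.17 in Δpro#3-expressing cells.

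At day 7, 4 of 20 of these genes were higher and 3 lower in NFIA-expressing than in control cells, against 35.5% of all genes called. Nampt, an enzyme of NAD synthesis under clock control, was at 22.1 FPKM in control and 78.0 FPKM in NFIA-expressing cells (1.77 ± 0.08, adjusted p = 1.75e-08, limma). It was lower in Δpro#3- than in NFIA-expressing cells, by 1.64 ± 0.08. Usp2 (-1.25 ± 0.07), Wee1 (-1.09 ± 0.11), a cell cycle kinase, and Csnk1e (-0.65 ± 0.06), a kinase that marks PER for decay, were lower with NFIA. Usp2 was also lower with Δpro#3 than in control cells (-1.08 ± 0.07, adjusted p = 3.54e-06, limma), and its difference between Δpro#3- and NFIA-expressing cells was 0.16 ± 0.07 (adjusted p = 0.0791, limma). Wee1 differed by 0.03 ± 0.11 between Δpro#3-expressing and control cells, and Csnk1e by -0.39 ± 0.06, below 1.5-fold.

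With forskolin, 1 of 20 rose in control cells, 4 rose and 1 fell in NFIA-expressing cells, and 3 rose in Δpro#3-expressing cells, where 4.14%, 13.5% and 7.43% of all genes were called. The riser in control cells was Bhlhe40, an E-box repressor, from 33.4 to 56.0 FPKM (0.73 ± 0.07, adjusted p = 5.74e-07, limma), and it rose by 0.99 ± 0.07 and 1.19 ± 0.07 in the others. Nfil3, which represses at the D-box that DBP activates, rose from 37.1 to 95.0 FPKM in NFIA-expressing cells (1.33 ± 0.07, adjusted p = 3.41e-10, limma). It also rose in Δpro#3-expressing cells, from 26.0 to 59.1 FPKM. Its response was called larger than in control cells both with NFIA (difference 0.81 ± 0.10) and with Δpro#3. Tef, a D-box activator related to Dbp, fell in NFIA-expressing cells from 54.9 to 31.1 FPKM (-0.80 ± 0.05), where Dbp itself was 0.44 ± 0.08 lower.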

How the data were processed

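RNA-seq of 27 samples (9 groups of 3 replicates, grouped by the labels) was used. The authors aligned the paired reads to mm9 with STAR 2.5.3a, discarded reads that mapped to several places and took the fragment counts of the matching strand. They deposited these as FPKM, 1 file per sample, unscaled between samples. Dividing by the step that 1 fragment gives left whole numbers for 100% of values (within 0.05), so fragments were worked back. Depth was 9567769 to 27230965 fragments per sample, and it limits precision for counting error only. Replicates of a group differed by more than counting noise in all 27 pairs (chi-squared per gene of 1.55 to 14.97).

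Differences were tested in R 4.3.3 with limma 3.58.1 (eBayes with trend, 2-sided) on log2(FPKM + 1), over genes whose FPKM averaged at least 0.5 over the samples of the fit, with Benjamini-Hochberg adjustment over all genes of the comparison. Construct effects used the 9 samples of a time point. Forskolin responses and day 0 to day 7 changes used 18 samples, and differences between cell types were interaction terms. A call needed an adjusted p under 0.05 and over 1.5-fold. The fit was run on simulated data for NFIA against control at day 0, over 11921 genes, with 200 genes changed. It recovered 93% of the 2-fold and 100% of the 4-fold changes, with 12 false calls. Day 7, forskolin, changes near 1.5-fold and samples that stand apart were not simulated.

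The alternatives were a pseudocount of 0.1, median-ratio scaling, no filter, a minimum mean FPKM of 1, other sets of samples in the fit, no trend, a replicate block, limma-voom on the fragments, leaving out each sample and, chosen after the data were seen, leaving out the 3 samples that stood apart. Named genes were the 10 members, of each other list the called genes with the largest differences (at most 3 a direction), for Nr1d1, Dbp, Per1 and Arntl the 3 genes with the most similar group means, and Nfia. A gene that this rule would name from the other lists is not reported here. The members, lists and threshold were chosen with earlier results of these data known. Of the 16 names of the cyclic AMP list, 15 were in the files, and Icer, an isoform, has no value. Promoter windows came from RefSeq (GRCm38.p6), positions from the NCBIM37 annotation, and figures were drawn with matplotlib 3.10.9 in Python 3.11.15.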

Additional observations from a re-analysis of the deposited data

Results flagged for a closer look

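A change of a clock gene that differed between cell types in a direct test of the difference (limma interaction, adjusted p under 0.05 and over 1.5-fold) was singled out, which gave 8 values. All are on the log2 scale of FPKM + 1. For the forskolin response, NFIA-expressing minus control cells, these were Per2 (0.70, adjusted p = 0.000257), Per3 (-1.33, adjusted p = 2.32e-05) and Cry1 (0.67, adjusted p = 6.29e-05). For the change from day 0 to day 7, NFIA-expressing minus control cells, they were Per2 (-0.75, adjusted p = 6.84e-07), Cry1 (-1.16, adjusted p = 2.64e-09) and Clock (-0.90, adjusted p = 4.30e-07). For the same change, Δpro#3-expressing minus control cells, they were Per2 (-0.72, adjusted p = 3.99e-06) and Dbp (-0.84, adjusted p = 3.82e-06). All 8 kept their call and direction under each alternative and without each sample. The day 7 samples without forskolin enter both kinds of difference, so the lower Per2 and Cry1 of NFIA-expressing cells at day 7 bear on both, and the 2 kinds are not independent of each other.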

How the results depend on the processing

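Of the 52 calls of a member in a comparison, none changed direction under any alternative, and 44 kept their call under all of them. The 8 that lost it in at least 1 setting are given with the results above. The number of members called was most sensitive near the 1.5-fold limit. With a pseudocount of 0.1 and with limma-voom, 3 members were called for NFIA against control at day 0 (Per2 and Cry1 beside Clock, in place of 1), 1 for Δpro#3 against control at day 0 (Per3, in place of 0), 3 for Δpro#3 against NFIA at day 0 (Cry1 added, in place of 2), 4 for Δpro#3 against NFIA after forskolin (Per3 added at 0.71 and 0.74, in place of 3) and 1 for the difference in forskolin response of Δpro#3 against control (Cry1, in place of 0). Leaving out each sample in turn gave 0 to 1 for Δpro#3 against control at day 0 and 1 to 2 for NFIA against control after forskolin, where the lower count came without replicate 1 of NFIA-expressing cells. With all 3 samples that stood apart left out, 1 member was called in that comparison (in place of 2), 7 for day 0 to day 7 with Δpro#3 (8) and 4 for Δpro#3 against NFIA after forskolin (3), and the count was as before in the other 8 comparisons that use them. Over all genes, limma-voom called 800 with forskolin in control cells (507 in limma on log2 FPKM), 2556 in NFIA- (1656) and 1473 in Δpro#3-expressing cells (910). For the difference in forskolin response of Δpro#3 against control, 285 genes were called, and 434 without replicate 1 of Δpro#3-expressing cells after forskolin. Scaling by the median ratio moved the share of higher genes among those called for the difference in forskolin response of NFIA against control from 32.8% to 44.9%. Same-numbered samples of different groups did not deviate together (mean correlation 0.0139 at day 0, -0.0314 at day 7 and -0.0019 after forskolin), so the numbers were not taken as pairs, and the replicate block left the number of members called as it was in all 19 comparisons (5 in control cells from day 0 to day 7, for example). The depth leaves counting error small for the members, none of which rested on fewer than 133 fragments in a sample.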
